A study of Mus musculus with 30 samples.

Results

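The genes described here are App, its homologue Aplp2, and the genes whose products cut or sort the amyloid precursor protein: Bace1, Adam10, Psen2, Ncstn, Aph1a, Psenen and Sorl1. They were named as a list of gene symbols with no threshold on their values, though with earlier results of these data known, and all 9 were found among the 13788 genes of the expression table. The cells were primary microglia, harvested by shake-off from cultures of mouse brain. Total RNA was sequenced from 30 libraries in 10 groups of 3. The labels gave 2 genotypes, WT and PD-1 KO, the latter a knockout of the immune checkpoint receptor encoded by Pdcd1. Within each genotype there was an untreated group at 0 h, and there were groups at 2 h and 8 h either with medium conditioned to contain amyloid-beta or without it. Age, sex, strain and knockout allele were not given in the sources used here. The labels did not say whether libraries of a group came from separate animals or cultures, so the p-values measure the spread between libraries only, which may be technical.

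The amyloid precursor protein is a membrane protein that can be cut along competing routes. Cleavage by the alpha-secretase ADAM10 falls inside the amyloid-beta sequence, whereas cleavage by the beta-secretase BACE1 frees its start. The remaining membrane stub is then cut by gamma-secretase, a complex of presenilin, nicastrin, APH-1 and PEN-2, and SORL1 sorts the precursor between endosomes and other compartments. In the brain these routes are best known from neurons. In microglia, gamma-secretase and ADAM10 also process receptors such as TREM2.

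The libraries held between 4227019 and 48509985 reads assigned to genes, with a median of 9603082, as recovered from the step of 1 read in each library. The values are a signal: read counts that the authors divided by a factor per library and then raised to a floor of 1. No value of the 9 genes lay at the floor, and their reads per library ranged from 81, for Bace1, to 49271, for Aplp2. All 15 WT-labelled libraries held Pdcd1 at the floor value, whereas the 15 PD-1 KO-labelled libraries had 6.02 to 25.3, which goes against the labels of a knockout, although which exons the knockout removes was not given. The genotype names below are therefore those of the labels only. All of the 10 microglia markers examined were above the floor in every library, with Csf1r at 7517 to 13661, but P2ry12 and Tmem119 were low, at 44.5 to 131 and 17.5 to 67.4. Libraries at 8 h carry library numbers from a separate block, so time and that block cannot be told apart in comparisons of 8 h with 0 h.

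App and Aplp2 were abundant in these cells. Divided by merged exon length, the median signal over the 30 libraries was 1693 per kb for Aplp2 and 663 per kb for App. On that scale Aplp2 exceeded App in 30 of 30 libraries and App exceeded Ncstn in 30 of 30. In neither pair did the ranges meet. App did not stand clear of Psenen, which reached 677 per kb against a lowest App value of 577. Within a library App ranked 2 to 3 and Psenen 2 to 7. Merged exon length counts the exons of all annotated transcripts, 12996 bases for App and 5875 for Aplp2. Which transcripts were expressed was not examined, so the width of the gap between Aplp2 and App rests on these lengths. Without length, mean signal was 10959 for Aplp2 and 9071 for App in WT-labelled libraries. In PD-1 KO-labelled libraries it was 9128 and 8390. The 4 gamma-secretase genes and Adam10 came next and lay close together, with per-length medians of 450 for Ncstn, 443 for Aph1a, 439 for Adam10, 403 for Psenen and 364 for Psen2. Their ranges overlapped with those of their neighbours in that order. Sorl1 and Bace1 were far lower, at 50.5 and 36.7 per kb. The ranges of these 2 genes overlapped, although Sorl1 was the higher of the pair in 28 of 30 libraries. On the signal scale without regard to length, Bace1 stood at percentile 50.9 of the genes tested and App at percentile 99.3. The alpha-secretase gene was thus measured far above the beta-secretase gene per length in every library.

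**Figure D1:**
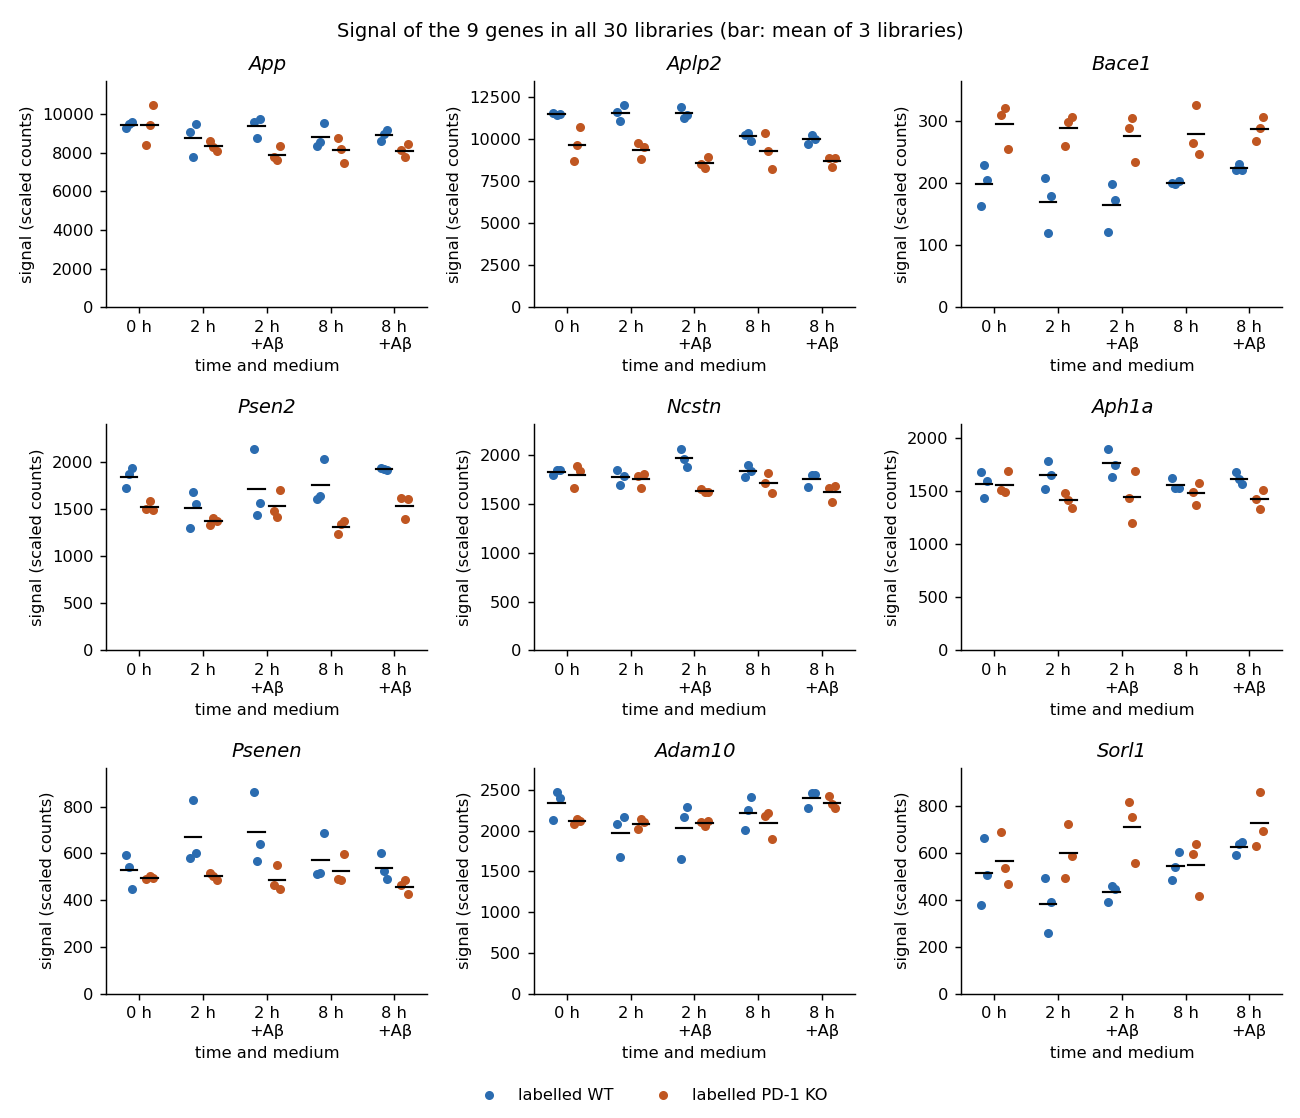
Signal of each of the 9 genes (y axis, scaled counts, from 0) in the 5 conditions (x axis), with 1 point per library, blue for libraries labelled WT and orange for those labelled PD-1 KO, and a bar at the mean of 3 libraries. Bace1 points labelled PD-1 KO (235 to 326) all lie above those labelled WT (120 to 231), whereas Adam10 points of the 2 labels overlap.

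The genes lie on 5 chromosomes (GRCm38, GENCODE M21), and 4 of them are on chromosome 9: Aplp2 at chr9:31149557-31211815, Sorl1 at chr9:41964720-42124297, Bace1 at chr9:45838580-45864399 and Adam10 at chr9:70678997-70780229. Of these neighbours by chromosome, Sorl1 and Bace1 were higher under the PD-1 KO label, Aplp2 was lower, and Adam10 did not pass the test. App lies at chr16:84949685-85173766, Psen2 at chr1:180227004-180263438, Ncstn at chr1:172066013-172082795, Aph1a at chr3:95893969-95898288 and Psenen at chr7:30561863-30563627. RefSeq promoter windows of GRCm38.p6, running from 250 bases before to 50 after a gene's start, were matched for 8 of the 9 genes, and not for Bace1. Those of the genes with the widest genotype differences are printed 5′ to 3′, on the minus strand in each case, for Aplp2 (chr9:31211799-31212098), Psen2 (chr1:180256251-180256550), Psenen (chr7:30563578-30563877) and Sorl1 (chr9:42124248-42124547), with the window nearest the annotated start where the table has more than 1. The Psen2 window lies inside the annotated gene, away from its annotated start at chr1:180263438, so it surrounds a different start of that gene. Capitals mark the GC box GGGCGG, the CCAAT box, the TATA box TATAAA and the E-box CACGTG, all searched on both strands.
Aplp2: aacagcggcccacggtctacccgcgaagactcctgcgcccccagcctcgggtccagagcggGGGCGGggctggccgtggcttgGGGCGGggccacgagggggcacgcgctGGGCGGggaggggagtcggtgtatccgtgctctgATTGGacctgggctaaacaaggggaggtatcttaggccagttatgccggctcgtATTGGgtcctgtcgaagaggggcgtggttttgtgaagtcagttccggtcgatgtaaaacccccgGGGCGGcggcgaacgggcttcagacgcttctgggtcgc
Psen2: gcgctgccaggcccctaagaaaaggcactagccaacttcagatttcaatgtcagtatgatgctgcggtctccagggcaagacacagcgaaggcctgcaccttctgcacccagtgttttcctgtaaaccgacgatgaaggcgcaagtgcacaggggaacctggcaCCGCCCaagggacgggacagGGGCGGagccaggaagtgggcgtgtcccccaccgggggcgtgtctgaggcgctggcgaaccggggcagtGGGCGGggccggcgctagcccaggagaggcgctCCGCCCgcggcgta
Psenen: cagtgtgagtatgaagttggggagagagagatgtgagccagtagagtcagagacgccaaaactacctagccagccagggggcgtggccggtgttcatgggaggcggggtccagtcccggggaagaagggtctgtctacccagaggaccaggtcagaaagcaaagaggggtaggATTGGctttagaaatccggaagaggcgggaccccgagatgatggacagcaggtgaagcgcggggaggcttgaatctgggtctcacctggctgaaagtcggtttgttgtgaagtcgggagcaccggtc
Sorl1: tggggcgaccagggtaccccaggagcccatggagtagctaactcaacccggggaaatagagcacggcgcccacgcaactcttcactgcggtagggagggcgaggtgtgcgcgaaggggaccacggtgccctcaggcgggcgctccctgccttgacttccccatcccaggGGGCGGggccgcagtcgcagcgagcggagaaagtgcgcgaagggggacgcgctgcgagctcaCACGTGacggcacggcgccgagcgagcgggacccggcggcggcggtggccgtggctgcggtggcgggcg
The Aplp2 window held 4 GC boxes and 2 CCAAT motifs, and that of Psen2 held 4 GC boxes. The Psenen window held 1 CCAAT motif and no GC box. The Sorl1 window held 1 GC box and 1 CACGTG. Among the windows not printed, Adam10 held 3 GC boxes, 2 of them overlapping, with 2 CCAAT motifs and 1 CACGTG; Aph1a held 1 GC box and 2 CCAAT motifs; App held 1 GC box; and Ncstn held none of the 4 motifs. TATAAA occurred in none of the 8 windows. Of 32851 promoters of the same length, 35.7% held GGGCGG, 37.4% CCAAT, 13.6% TATAAA and 7.15% CACGTG. A match describes letters in the window and is not a measured site.

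The widest difference among the 9 genes was in Bace1, the beta-secretase gene, which stood higher under the PD-1 KO label. Its signal ran from 120 to 231 with a median of 200 in the 15 WT-labelled libraries, and from 235 to 326 with a median of 289 in the 15 PD-1 KO-labelled libraries. Every PD-1 KO-labelled library lay above every WT-labelled library. The ratio of medians was 1.45, and the log2 difference averaged over the 5 conditions was 0.59 ± 0.08 (SE, n = 15 and 15 libraries; limma, Benjamini-Hochberg adjusted p = 1.77e-07). Over this comparison 59.5% of all 13722 genes tested passed the threshold of adjusted p 0.05, so a call by itself sets no gene apart. At 0 h the Bace1 values were 164, 230 and 205 in WT-labelled libraries against 311, 321 and 256 in PD-1 KO-labelled libraries. At 2 h without amyloid-beta they were 209, 120 and 180 against 261, 300 and 307, and at 8 h 200, 199 and 203 against 266, 326 and 247. Within each of the 5 conditions the groups did not overlap. The difference passed in 4 of the conditions, with log2 values of 0.57 at 0 h, 0.80 at 2 h, 0.77 at 2 h with amyloid-beta and 0.47 at 8 h, and did not pass at 8 h with amyloid-beta (0.36, adjusted p = 0.121). The 0 h call was lost without WT-labelled replicate 1 (0.44, adjusted p = 0.12) or PD-1 KO-labelled replicate 1 (0.54) or 2 (0.51). The 8 h call was lost without any of the 6 libraries but PD-1 KO-labelled replicate 3, with values of 0.35 to 0.50. It was also lost when every library was given the same distribution of values (quantile normalization, 0.37), with factors computed as trimmed means (TMM, 0.45), with limma without a trend (0.47) and with voom on the recovered reads (0.42).

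Sorl1, the sorting receptor gene, also stood higher under the PD-1 KO label. Its signal ran from 258 to 660 (median 494) in WT-labelled and from 417 to 859 (median 627) in PD-1 KO-labelled libraries. The groups overlapped, with 6 of 15 PD-1 KO-labelled libraries above every WT-labelled library and 12 of 15 above the WT median. The difference over all conditions was 0.35 ± 0.09 (log2, SE, n = 15 and 15; limma adjusted p = 0.00225). By condition it passed at 2 h (0.69, adjusted p = 0.0129) and, where amyloid-beta was present, also at 2 h (0.70, adjusted p = 0.00937). It was close to 0 at 8 h (0.00, 95% interval -0.43 to 0.43). At 2 h the values were 494, 258 and 390 against 490, 722 and 585, and the call was lost without WT-labelled replicate 2 (0.43) or PD-1 KO-labelled replicate 2 (0.54). At 2 h with amyloid-beta they were 392, 459 and 445 against 814, 751 and 557, with no overlap, and the call was lost without PD-1 KO-labelled replicate 1 (0.58). The change of the genotype difference between 0 h and 2 h did not pass (0.54, 95% interval -0.07 to 1.14).

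Aplp2, a close homologue of App, stood lower under the PD-1 KO label. Its signal ran from 9712 to 12030 (median 11246) in WT-labelled libraries and from 8254 to 10727 (median 8890) in PD-1 KO-labelled libraries. Of the latter, 12 of 15 lay below every WT-labelled library. The difference was -0.26 ± 0.04 on the log2 scale over all conditions (SE, n = 15 and 15; limma adjusted p = 5.68e-07), and it passed at 0 h (-0.25), at 2 h (-0.31) and at 2 h with amyloid-beta (-0.43). At 2 h with amyloid-beta the values were 11922, 11246 and 11452 against 8518, 8266 and 8944. Its 0 h call was lost without any of the 6 libraries but PD-1 KO-labelled replicate 3, with values of -0.26 to -0.18, and under quantile normalization (-0.13), with TMM factors (-0.26) and when the other 8 groups were left out of the fit (-0.25). At 2 h and at 2 h with amyloid-beta the sign of Aplp2 turned under quantile normalization. App itself differed less. Its signal ran from 7803 to 9776 (median 9173) against 7497 to 10470 (median 8286), so the ranges overlapped widely, and the log2 difference was -0.12 ± 0.04 (limma adjusted p = 0.0135). In single conditions App passed only at 2 h with amyloid-beta (-0.25, adjusted p = 0.0279), where 9581, 8767 and 9776 stood against 7765, 7611 and 8339, and that call was lost without WT-labelled replicate 1 or 3 or PD-1 KO-labelled replicate 1 or 2 (-0.23 to -0.21), and with only the 2 groups compared in the fit (adjusted p = 0.15).

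The direction of both precursor genes depended on scaling. Under quantile normalization App became higher in PD-1 KO-labelled libraries (log2 0.13, adjusted p = 0.00213) and Aplp2 did not pass (0.03). Within conditions App also turned sign under it at 2 h and at 2 h with amyloid-beta. That scaling moved the median difference of all genes from -0.02 to -0.11, and the share of calls that were higher from 51.0% to 34.2%. Relative to that median the 2 genes stood higher under it, and no direction is given for them beyond the authors' scaling. Under the authors' scaling and TMM factors both were lower, with TMM values of -0.13 for App and -0.28 for Aplp2. Bace1 (0.49), Sorl1 (0.36), Psen2 (-0.18) and Psenen (-0.26) kept direction and call under quantile normalization.

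**Figure D2:**
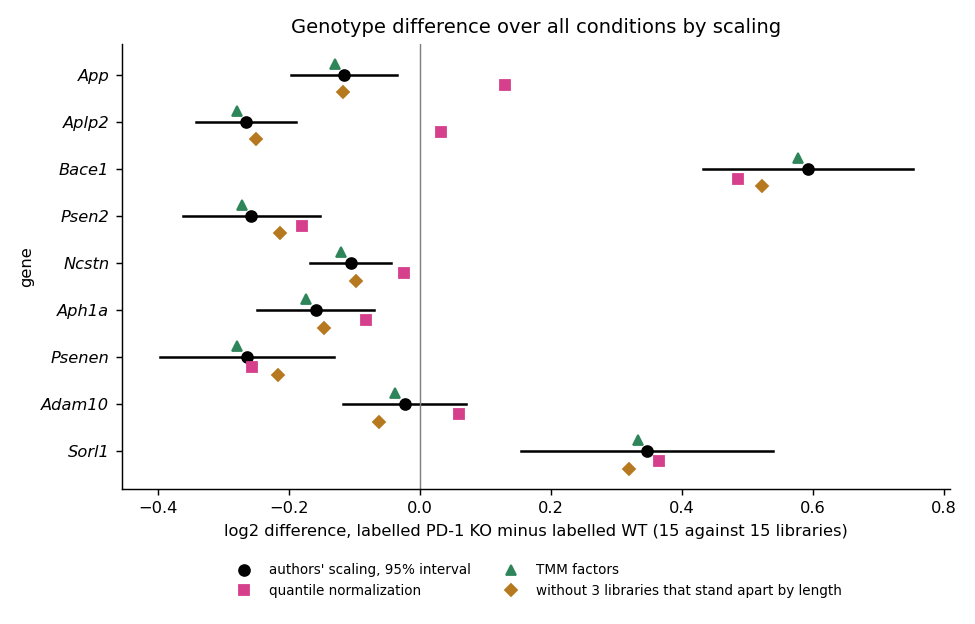
Log2 difference between libraries labelled PD-1 KO and WT over all conditions (x axis) for each gene (y axis): black points with 95% intervals for the authors' scaling, squares for quantile normalization, triangles for TMM factors and diamonds without 3 libraries that stood apart by transcript length. Bace1 and Sorl1 lie above 0 and Psen2 and Psenen below 0 in each, while App crosses from -0.12 to 0.13 and Aplp2 from -0.26 to 0.03 under quantile normalization.

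With the authors' scaling, the gamma-secretase genes Psen2, Ncstn, Aph1a and Psenen all came out lower under the PD-1 KO label, by small amounts. The further subunit genes Aph1b (log2 difference 0.53, higher) and Aph1c (-0.82, lower) differed more over all conditions. Both of these are uncertain, because reads can be split between these near-identical copies. Psen2, a presenilin gene that carries the catalytic site, ran from 1302 to 2142 (median 1720) in WT-labelled and from 1233 to 1706 (median 1415) in PD-1 KO-labelled libraries, and 15 of 15 of the latter lay below the WT median. Its log2 difference was -0.26 ± 0.05 (SE, n = 15 and 15; limma adjusted p = 8.88e-05). Psenen, which encodes the small subunit PEN-2, ran from 448 to 863 (median 582) against 425 to 598 (median 491), with a difference of -0.26 ± 0.06 (limma adjusted p = 0.000978). The spread of Psenen was much wider in WT-labelled libraries, with an SD of 117 against 41.1. Aph1a, a scaffold subunit, differed by -0.16 ± 0.04 (limma adjusted p = 0.00255), with 6 of 15 PD-1 KO-labelled libraries below every WT-labelled library. Ncstn, the substrate-binding subunit nicastrin, differed by -0.11 ± 0.03 (limma adjusted p = 0.00393), with 8 of 15 below every WT-labelled library. Under quantile normalization neither Aph1a (-0.08) nor Ncstn (-0.02) passed.

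Within single conditions the subunits passed at different times. Psen2 passed at 8 h both without amyloid-beta (-0.41, limma adjusted p = 0.00737) and in its presence (-0.33, limma adjusted p = 0.0277). In the latter, 1930, 1922 and 1916 stood against 1614, 1391 and 1607, with no overlap, but the call was lost without any of the 6 libraries except PD-1 KO-labelled replicates 1 and 3 (-0.33 to -0.26), and under quantile normalization (-0.24). The 8 h call was lost without WT-labelled replicate 3 (-0.30). Psenen passed at 2 h (-0.40, limma adjusted p = 0.0342), where 582, 830 and 602 stood against 515, 505 and 485, and this call was lost without WT-labelled replicate 2 (-0.24) or any PD-1 KO-labelled replicate (-0.42 to -0.38). At 2 h with amyloid-beta Psenen (-0.49), Aph1a (-0.30) and Ncstn (-0.27) all passed. Of these, Psenen no longer passed without WT-labelled replicate 1 (-0.31), and Aph1a without that library (-0.24) or PD-1 KO-labelled replicate 2 (-0.17). Under quantile normalization Psenen passed there (-0.48) but neither Aph1a (-0.16) nor Ncstn (-0.12) did, and neither of these passed with only the 2 groups compared in the fit (limma adjusted p = 0.135 and 0.0823). The Ncstn values there were 2063, 1954 and 1874 against 1652, 1624 and 1616, the tightest PD-1 KO-labelled group for this gene. Interactions tested whether the genotype difference changed with amyloid-beta at 2 h and at 8 h, and from 0 h to 2 h and to 8 h. None of the 9 genes passed in any of the 4. The genotype difference at 2 h was not set against that at 8 h, so a difference between these times was not tested.

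Adam10, the alpha-secretase gene, showed no difference that passed. Its signal ran from 1647 to 2477 (median 2254) in WT-labelled and from 1903 to 2431 (median 2124) in PD-1 KO-labelled libraries, so the second range lay inside the first. The log2 difference was -0.02 ± 0.05, with a 95% interval of -0.12 to 0.07 and a limma adjusted p of 0.685. Only when libraries were weighted by their quality did it pass, at -0.07 (limma adjusted p = 0.0322). The within-library log2 ratio of Bace1 to Adam10, of signal and without regard to length, ran from -3.80 to -3.32 (median -3.50) in WT-labelled and from -3.18 to -2.74 (median -2.89) in PD-1 KO-labelled libraries. The 15 PD-1 KO-labelled ratios all lay above the 15 WT-labelled ones. For Sorl1 to App the median ratio was -4.20 against -3.70, with 9 of 15 PD-1 KO-labelled libraries above every WT-labelled library. For App to Aplp2 the median ratio was -0.28 against -0.12, with 15 of 15 above the WT median. These ratios do not depend on a library's scaling factor and were described without a test.

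Counted over all conditions, 8 of the 9 genes passed, 2 higher and 6 lower, where 30.3% of all genes were higher and 29.1% lower. Under quantile normalization 3 were higher and 2 lower, where 23.7% of all genes were higher and 45.7% lower. The median log2 difference of the 9 was -0.12, and that of all genes tested was -0.02. At 0 h, 2 of 9 passed (20.7% of all genes), at 2 h 4 of 9 (32.2%), and at 2 h with amyloid-beta 7 of 9 (38.9%). At 8 h 2 of 9 passed (27% of all genes), and at 8 h with amyloid-beta 1 of 9 (33.7%). The shares at 0 h and 8 h were near that of all genes. Leaving out each library in turn kept all 8 calls over all conditions in each of the 30 fits. The calls within conditions were less stable: without WT-labelled replicate 1 at 0 h, or PD-1 KO-labelled replicate 1 or 2, none of the 9 passed at 0 h, and without WT-labelled replicate 3 none passed at 8 h.

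The PD-1 KO-labelled libraries also differed from the WT-labelled ones in markers of other brain cells. All of the 10 astrocyte markers examined were higher, with a median log2 difference of 2.79. Their summed signal was 1311 to 4198 in WT-labelled and 11771 to 29896 in PD-1 KO-labelled libraries, and no defining astrocyte marker was at the floor in any library. Oligodendrocyte lineage markers were higher for 7 and lower for 3 of 11 (sums 2494 to 5688 against 6541 to 10829), and ependymal markers were higher for 6 of 6 (sums 72.8 to 444 against 1329 to 6101). Fibroblast and vascular markers were higher for 6 and lower for 1 of 9 in the table (sums 251 to 1457 against 937 to 1827), and neuron markers higher for 4 and lower for 4 of 8 (sums 543 to 951 against 1087 to 1811). Rbfox3, Dcn, Lum and 4 of the ependymal markers were at the floor in at least 1 library. Microglia markers were higher for 4 and lower for 4 of 10, with sums of 61515 to 109214 against 46942 to 83039. These counts differed between conditions: 7 were higher and 1 lower at 0 h (median 0.63), 1 and 5 at 2 h (-0.39), 3 and 1 at 8 h (0.11), and 3 and 3 at 8 h with amyloid-beta (-0.11). At 2 h with amyloid-beta, where 7 of the 9 genes passed, no microglia marker was higher and 6 of 10 were lower (median -0.64), with sums of 86240 to 109214 against 46942 to 57027. Beside these marker counts, 30.3% of all genes were higher and 29.1% lower over all conditions. In either direction, 20.7% of all genes passed at 0 h, 32.2% at 2 h and 27% at 8 h. With amyloid-beta, 38.9% passed at 2 h and 33.7% at 8 h. In bulk RNA, fewer cells of a type and less RNA per cell cannot be told apart. The part of these cells, microglia included, in the Bace1, Sorl1 and other differences was not tested.

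In 3 libraries signal deviated with transcript length, and several of the same genes stood apart there. For 6613 genes of higher mean level, the deviation from the median of all 15 libraries of the same label was set against exon length. The correlation lay between -0.41 and 0.37 in 27 libraries and at -0.63, -0.55 and -0.60 in the other 3. In this order, these 3 were WT-labelled 2 h replicate 2, WT-labelled 2 h amyloid-beta replicate 1 and PD-1 KO-labelled 8 h replicate 3. In the first of these, Bace1 was at 120 against a mean of 194 in the other libraries of its group, Sorl1 at 258 against 442, and Psenen, the shortest of the 9 transcripts, at 830 against 592. In the second, Bace1 was at 121 against 186, Psenen at 863 against 604 and Psen2 at 2142 against 1499. In the third, Sorl1 was at 417 against 616, Bace1 at 247 against 296 and Psenen at 598 against 489. The Psenen values of 863 and 830 were thus the highest among WT-labelled libraries, and the Bace1 values of 120 and 121 the lowest. The 9 genes did not all follow length. App has the longest exons of the 9 but lay above the mean of the other libraries of its group in the second, at 9581 against 9272. Ncstn, with shorter exons than Psen2, was at 1691 against 1817 in the first and 1612 against 1763 in the third. Psen2 lay above the other libraries' mean in both. Without the 3 libraries the same 8 genes passed over all conditions, with Bace1 at 0.52, Sorl1 at 0.32, Psen2 at -0.21 and Psenen at -0.22. At 2 h without them, 2 of 9 passed in place of 4, since neither Sorl1 (0.43) nor Psenen (-0.24) did.

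**Figure D3:**
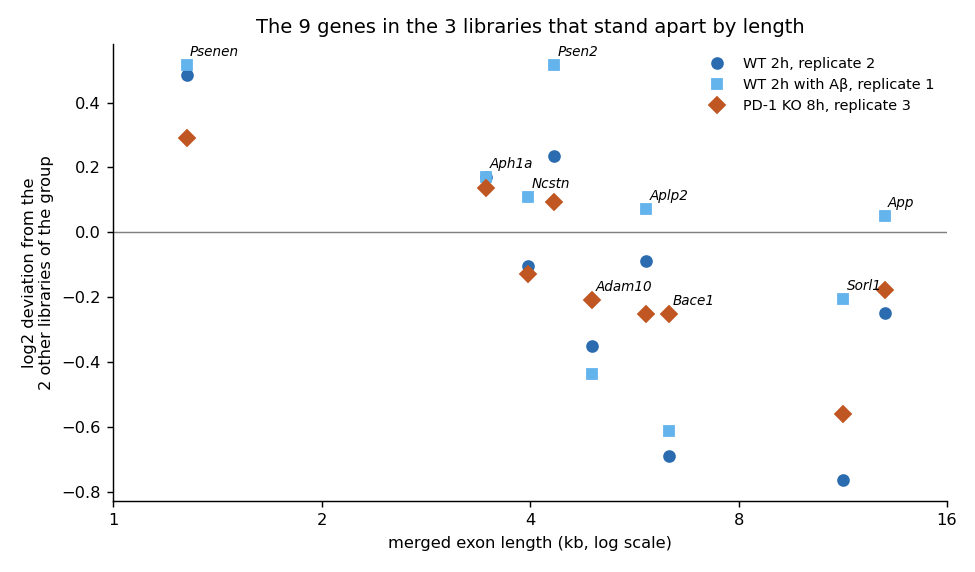
Log2 deviation of each of the 9 genes from the mean of the other libraries of its group (y axis) against merged exon length in kb (x axis, log scale), for the 3 libraries whose deviations followed length. Psenen, at the left, lies above 0 in each, and Adam10, Bace1 and Sorl1 lie below 0 in each.

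Amyloid-beta medium changed none of the 9 genes past the threshold. This held in WT-labelled cells at 2 h (0 of 9, with 0% of all genes) and 8 h (0 of 9, with 2.18%), and in PD-1 KO-labelled cells at 2 h (0 of 9, with 0%) and 8 h (0 of 9, with 0.0583%). At an unadjusted p under 0.05 there was 1 gene in these 4 comparisons, Ncstn in WT-labelled cells at 2 h (0.15, 95% interval 0.01 to 0.29). The widest difference was that of Sorl1 in PD-1 KO-labelled cells at 8 h, at 595, 637 and 417 without and 627, 859 and 691 with amyloid-beta, a log2 difference of 0.41 with a 95% interval of -0.02 to 0.84. App differed by 0.10 (-0.08 to 0.28) at 2 h and 0.02 (-0.16 to 0.20) at 8 h in WT-labelled cells, and Bace1 by -0.04 (-0.39 to 0.32) and 0.16 (-0.20 to 0.52). These intervals leave room for small changes, and for Bace1 and Sorl1 for larger ones. With libraries weighted by quality, which raised the share of all genes called in PD-1 KO-labelled cells at 8 h to 3.34%, Psen2 passed there (0.30, limma adjusted p = 0.0182). The test of whether the 2 labels responded differently gave 0 of 9 at 2 h (0.051% of all genes) and 0 of 9 at 8 h (0%), with Ncstn alone at an unadjusted p under 0.05 (-0.25 at 2 h).

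**Figure D4:**
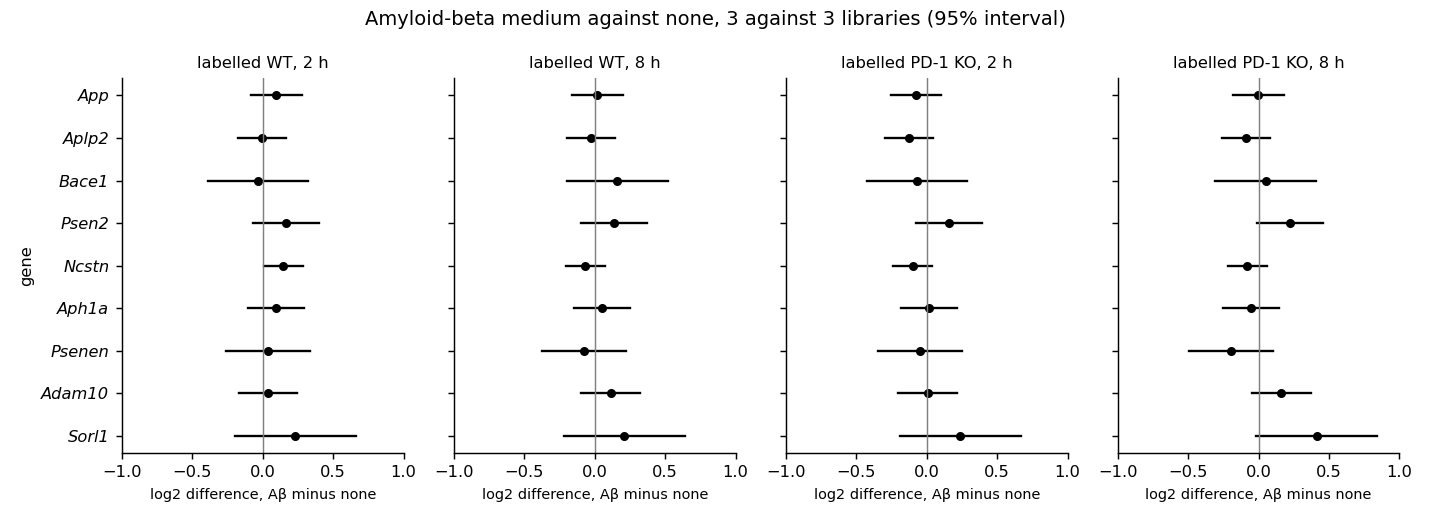
Log2 difference between libraries with and without amyloid-beta medium (x axis) with 95% intervals, for each gene (y axis), in 4 panels by genotype label and time (3 against 3 libraries each). All intervals but that of Ncstn in WT-labelled cells at 2 h span 0, and the widest are those of Sorl1 and Bace1.

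Time in culture without amyloid-beta likewise gave no calls among the 9. The 2 h and 8 h groups were each set against the same 0 h libraries, so the comparisons within a label share them. In WT-labelled cells 0 of 9 passed at 2 h (4.75% of all genes) and 0 of 9 at 8 h (6.05%). In PD-1 KO-labelled cells 0 of 9 passed at 2 h (0.634%) and 0 of 9 at 8 h (3.29%). The most marked values were in WT-labelled cells at 2 h, where 4 genes had an unadjusted p under 0.05: Psen2 (-0.29), Adam10 (-0.25), Sorl1 (-0.44) and Psenen (0.34). Of these, only Psen2 passed without the 3 libraries that stood apart by length, at -0.37 (limma adjusted p = 0.0331), where 1 of 9 genes passed. The genotype difference of the change with time gave 0 of 9 at 2 h (0.736%) and 0 of 9 at 8 h (0.27%).

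Of 6 further genes of the APP family and the secretases, the PD-1 KO label had 4 higher and 1 lower over all conditions. As shares these were 66.7% and 16.7%, beside 30.3% and 29.1% of all genes. Bace2, which encodes a protease related to BACE1, rose from a mean signal of 32.7 ± 16.9 to 224 ± 54.4 (SD, n = 15 each), a log2 difference of 2.88 ± 0.14 (limma adjusted p = 4.09e-16). It was also the only one of the 6 to pass with amyloid-beta, falling in WT-labelled cells at 8 h from 42.6, 46.9 and 30.1 to 15.9, 7.35 and 16.1 (-1.58, limma adjusted p = 0.00607). The reads of Bace2 per library went as low as 5, so this fall rests on few reads. In WT-labelled cells at 8 h, 4 of the 10 astrocyte markers fell as well, where 2.18% of all genes passed in either direction. None of the 10 markers passed there under quantile normalization. The sums of all 10 ran from 1805 to 3444 without amyloid-beta and from 1311 to 1443 with it. Of the 6 genes above, 1 was still lower there under quantile normalization. The part of astrocytes in the fall of Bace2 was not tested. Aplp1, the APP homologue known mainly from neurons, was higher by 1.17 ± 0.06, with all 15 PD-1 KO-labelled libraries above every WT-labelled one. Adam17, a second protease with alpha-secretase activity, was higher by 0.24 ± 0.04. Aph1b (0.53) was higher and Aph1c (-0.82) lower, but these are near-identical copies between which reads can be split, so both are uncertain. Adam9 did not pass (-0.09).

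Genes that move or bind APP were tested as a list of 27, of which 5 were higher and 15 lower over all conditions, with a median log2 difference of -0.10. As shares these were 18.5% and 55.6%, beside 30.3% and 29.1% of all genes. Under quantile normalization 6 were higher and 10 lower (22.2% and 37.0%), beside 23.7% and 45.7% of all genes, so the share of lower genes stood above that of all genes under the first scaling and below it under the second. The higher ones included Sorcs2 (1.41), a sorting receptor of the SORL1 family, at a mean signal of 55.6 against 150, and Apbb1 (1.18), whose product binds the APP tail, at 108 against 238. The lower ones included Sorcs3 (-0.85), at 16.3 against 8.87, and Itm2b (-0.37), whose product binds APP, at 22680 against 17424. Itm2b did not pass under quantile normalization (-0.03). Of 18 other substrates of the secretases, 13 were higher and 2 lower (72.2% and 11.1%; 11 and 5 under quantile normalization, 61.1% and 27.8%), with a median of 0.56. Notch3 (1.94) and Cx3cl1 (1.52), a receptor and a membrane-bound chemokine, were higher, whereas Trem2 (-0.55), the microglial receptor shed by ADAM10, and Jag1 (-0.26), a Notch ligand, were lower. Trem2 fell from a mean signal of 16277 ± 3303 to 11008 ± 1067 (SD, n = 15 each). The values of the brain cell markers above stand beside these counts too, and their part was not tested.

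Exons of several of the 9 genes overlap another gene on the opposite strand, and the library kit named in the labels does not keep the strand, so reads there cannot be assigned to either. For Bace1 the shared part was 32.5% of its exon length, made up of Rnf214 (15.4%), Gm49338 (14.98%) and Gm16536 (2.13%). It was 12.9% for Aph1a (with Car14), 9.33% for Psenen (with U2af1l4, the stretch shared with Gm49396 included), 4.91% for Ncstn (with Copa), 1.63% for Sorl1 (with Gm16214) and 0.869% for App (with Gm49227). The 5 Gm genes were not analysed here. Rnf214 differed between labels by 0.01 (limma adjusted p = 0.904), and Car14 by -0.63 (limma adjusted p = 0.0647) at a mean signal of 14.5 against 9.07. U2af1l4 differed by -0.25 (limma adjusted p = 0.00139) and Copa by -0.12 (limma adjusted p = 0.0129), in the direction of Psenen and Ncstn.

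Across the 10 group means, Bace1 and Sorl1 ran against App, Aplp2, Ncstn, Aph1a and Psenen, much as their genotype differences did. Psen2 and Adam10 followed this less. The correlation of Psen2 with Sorl1 was -0.05, and Adam10 was at 0.58 with Sorl1 and 0.60 with Psen2. The highest Pearson correlations were those of Aph1a with Psenen (0.87) and Aplp2 with Aph1a (0.85), and Bace1 correlated with Sorl1 at 0.80. The lowest were those of Bace1 with Psenen (-0.91) and with Aplp2 (-0.90). These are descriptions over 10 group means, and the genes of a pair were read in the same libraries and share their scaling and the genotype difference. Within groups, over 30 libraries, Bace1 and Sorl1 correlated at 0.79 and Bace1 and Aph1a at -0.76, while Bace1 and Aplp2 were at -0.15. Bace1 and Adam10 correlated at 0.73 within groups and at 0.22 over the group means. The 3 libraries that stood apart by length are included in these values. The genes most like each in the 10 group means, among 6852 searched, were Csf1 for Bace1 (0.98), Slc7a11 for Sorl1 (0.98), Pmp22 for Aplp2 (0.99), Map2k3 for App (0.96), Vps8 for Psen2 (0.97), Dtx3l for Ncstn (0.96), Ddx47 for Aph1a (0.97), Dgcr14 for Psenen (0.98) and Nup160 for Adam10 (0.97).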

How the data were processed

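The deposited values are a signal per gene and library: the authors scaled the counts of each library by a factor and raised lower values to 1, as read from the values themselves. Per the submitters' processing notes, HISAT 0.1.5, Partek 6.6, R 3.0.2 and DESeq2 were used with build mm10. What each tool was used for is not given in the sources used here, nor is the read counter or gene annotation. In each library the values below 5000 reads were whole multiples of the step of 1 read within 0.05, and 4485 values (1.08%) lay at the floor. A depth of 4227019 to 48509985 reads per library limits precision among the 9 genes most for Bace1 (81 reads or more).

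Tests used limma 3.58.1 in R 4.3.3 on log2(value + 1), so fold changes of low genes are understated. Genes with a value of 10 or more in at least 3 libraries were kept, 13722 of 13788 (all 9 genes described). The fit gave each of the 10 groups its own mean over all 30 libraries, with trended empirical Bayes and Benjamini-Hochberg adjustment over all genes within each of 18 comparisons. Differences over all conditions average the 5 within-condition differences. The script was tested on simulated data. Exon lengths came from GENCODE M21. Correlations with length used 6613 genes.

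The 9 genes and the other lists were chosen with earlier results of these data known. All 9 genes are named. A gene of the list of other APP family and secretase genes is not reported here, and the counts of that list are over the 6 that are. Of the other lists, the genes with the widest differences past the threshold in each direction are named, and of the genes most alike the first for each. Leaving out the 3 libraries that stood apart by length was chosen after seeing the data. A planned count-model test was not run, because the floor hides low counts.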

Additional observations from a re-analysis of the deposited data

How the results depend on the processing

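Of 3294 single-gene values recomputed under the alternatives, 51 no longer passed, 17 newly passed with the same sign, and 6 that passed in one of the fits turned sign. The other 3220 stayed on their side of the threshold, among them 189 that passed in neither fit and turned sign (125 of these when a library was left out). The 6 were all under quantile normalization: App at 2 h (0.28), at 2 h with amyloid-beta (0.17) and over all conditions (0.13), and Aplp2 at the same 3 (0.074, 0.090 and 0.033). The cause was not tested. Over all conditions the count of 8 fell to 5 (3 higher, 2 lower) under quantile normalization, while the share of all genes called rose from 59.5% to 69.4%. At 0 h the count of 2 became 1 with quantile normalization (21.5% of all genes), TMM factors (20.2%) and only the groups compared in the fit (15.6%), with Aplp2 lost in each. At 2 h the 4 became 2 (26.1%) without the libraries that stood apart by length. At 2 h with amyloid-beta the 7 became 3 with quantile normalization (41.6%) and 4 with only the groups compared (26.5%). At 8 h the 2 became 1, with Bace1 lost, with quantile normalization (28.95%), TMM factors (26.8%), limma without a trend (26.3%) and voom on the recovered reads (26.8%). At 8 h with amyloid-beta the 1 became 0 with quantile normalization (38.4%), 2 with voom (39.7%), and 4 with array weights (46.7%) and with only the groups compared (44.1%), against 33.7% of all genes in the reported fit. Array weights also gave 1 call for amyloid-beta in PD-1 KO-labelled cells at 8 h (Psen2; all genes from 0.0583% to 3.34%), 2 for 2 h against 0 h in WT-labelled cells (Psen2 and Psenen; 4.75% to 17.7%) and 1 for 8 h against 0 h in PD-1 KO-labelled cells (Psen2; 3.29% to 8.05%). Without the libraries that stood apart, 1 gene (Psen2) passed for 2 h against 0 h in WT-labelled cells (2.996% of all genes). Leaving out each library in turn gave 0 to 2 calls at 0 h, 2 to 5 at 2 h, 4 to 7 at 2 h with amyloid-beta, 0 to 2 at 8 h, 0 to 1 at 8 h with amyloid-beta, 8 to 8 over all conditions, and 0 to 0 in the amyloid-beta, time and interaction comparisons. Where this left 2 libraries in a group, the spread was pooled over all groups. At 2 h with amyloid-beta the lowest count, 4, came without WT-labelled replicate 1. At 2 h the lowest, 2, came without WT-labelled replicate 2 or PD-1 KO-labelled replicate 2. At 8 h with amyloid-beta 0 passed without any 1 of the WT-labelled replicates or without PD-1 KO-labelled replicate 2.

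No paired analysis was possible because the titles carry a library number and no replicate number shared between groups. The planned count-model test was not run, since values at the floor hold no count. With 3 libraries a group and as few as 81 reads for Bace1, small differences within conditions were not detectable.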
